A study of Eumeta variegata with 6 samples.

Results

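The sequences described here are assembled transcripts of the bagworm moth Eumeta variegata whose names place them among the carriers of lipid and yolk in insect blood, the receptors that take those carriers up, or the coat proteins of lipid droplets. They were found by name alone: a sequence was kept where its NR or Swiss-Prot description held apolipophorin, lipophorin, vitellogenin, low-density lipoprotein receptor, microsomal triglyceride transfer, adipokinetic hormone-regulated lipid or lipid storage droplets. This gave 28 of the 41283 sequences in the table. NR and Swiss-Prot both gave 12 of them such a name, NR alone gave 13 and Swiss-Prot alone 3. By name, 4 were apolipophorins, 2 were lipid storage droplets surface-binding proteins, 16 were members of the low-density lipoprotein receptor family and 5 were vitellogenin receptors. One sequence was named Vitellogenin-2 by Swiss-Prot. The patterns microsomal triglyceride transfer and adipokinetic hormone-regulated lipid matched 0 sequences.

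Insects move fat through the blood on lipophorin, a reusable particle whose protein backbone is cut from a single large precursor, apolipophorin. In flying moths, adipokinetic hormone releases diacylglycerol from the fat body, and the small exchangeable protein apolipophorin-3 joins the particle as it loads. Vitellogenin, made by the fat body of most female insects and taken up by eggs, belongs to the same large lipid transfer protein family as apolipophorin. Lipophorin and vitellogenin are both taken up by receptors of the low-density lipoprotein receptor family. Inside fat cells, perilipins coat the stored droplet and set the access of lipases to it.

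Levels were measured by RNA sequencing of heads, in 3 male and 3 female libraries. The labels give the sex and the tissue but no age, stage, strain or treatment, and do not say whether samples of one sex came from separate animals or from pools. The p-values thus describe the spread among these 6 libraries, and that spread may be technical. Adult males of this moth are winged and females are wingless. A head sample can include fat body, blood and muscle as well as brain and sense organs, and in such bulk samples fewer cells of a type and less RNA per cell cannot be told apart.

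The deposited values are FPKM, fragment numbers scaled by sequence length and library total, so levels of different sequences can be set side by side. Library sums lay between 480295 and 492028 FPKM. The head tissue markers used here were 54 sequences matched by name alone to opsin, arrestin, odorant-binding protein, synaptotagmin or synapsin. Whether these names mark the head was not tested. The most abundant, named Putative odorant-binding protein A10 (TRINITY_DN1509_c0_g1_i2_2), averaged 231 FPKM in males and 393 FPKM in females. Opsin-1 (TRINITY_DN3564_c0_g1_i1_2), a visual pigment protein, averaged 5.85 FPKM in males and 5.25 FPKM in females. Opsins were low beside the A10 sequence, with the highest of 7 opsin-named sequences averaging 10.1 FPKM over all libraries. The A10 sequence named here was not called (limma adjusted p = 0.11). Of 44 head tissue markers tested, 5 were called higher and 0 lower in males, with a median log2 fold change of 0.25. Over all sequences tested, 4.4% were called higher and 2.7% lower in males, with a median of 0.05. The 5 include Arrestin domain-containing protein 1 (TRINITY_DN17309_c0_g1_i6_1), matched by the word arrestin. Its call ended without any 1 library (limma adjusted p up to 0.11). One of the 5, another Putative odorant-binding protein A10 (TRINITY_DN3748_c0_g1_i1_1), averaged 32.2 ± 1.3 FPKM in males and 13.6 ± 2.6 FPKM in females (SD, n = 3 each; limma adjusted p = 0.0054). The libraries also fell into sets that cross the sexes. Sequence names end in 1 or in 2. Among names ending in 1, males 2 and 3 and female 2 listed 2.96% to 5.42% at 0, and male 1 and females 1 and 3 listed 10.7% to 13.2%. Among names ending in 2 the order was turned, with 9.84% to 12.6% in the first set and 4.25% to 5.96% in the other. Values within each of these library sets are given beside the main results.

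In the comparison of male with female heads, 3 of the 21 sequences tested differed, and all were lower in males: an apolipophorin-3, lipid storage droplets surface-binding protein 1 and an apolipophorin precursor. The test was limma on log2(FPKM + 1), two-sided, with Benjamini-Hochberg adjustment over the 35198 sequences that reached 1 FPKM in 3 or more libraries, and a threshold of 0.05. Over all sequences tested, 7.11% differed, 4.4% higher in males and 2.7% lower in males. These were 1549 and 952 sequences, and 1329 and 1258 with median-of-ratios scaling, under which 0 of the 21 were higher and 4 lower in males. No receptor passed the test. The median log2 fold change, male minus female, was -0.00 over the 21 sequences and 0.05 over all sequences tested, with 10 of the 21 above 0 and 11 below. At an unadjusted p below 0.05 were 11 of the 21, 3 higher and 8 lower in males, beside 8214 of the 35198 sequences tested. The 8214 were not split by direction. Male and female values stood apart with no overlap for 14 of the 21, beside 30.2% of all sequences tested. Of the 14, 5 were higher in males, beside 18.2% of all, and 9 were lower in males, beside 12.0% of all. One sequence, Prolow-density lipoprotein receptor-related protein 1 (TRINITY_DN19833_c0_g3_i1_2), passed the filter through the males alone, with 1.09, 1.65 and 1.20 FPKM in males and 0.80, 0.59 and 0.81 FPKM in females, and was not called (limma adjusted p = 0.37, log2 fold change 0.41, and 0.75 with 0.1 in place of 1 added).

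**Figure D1:**
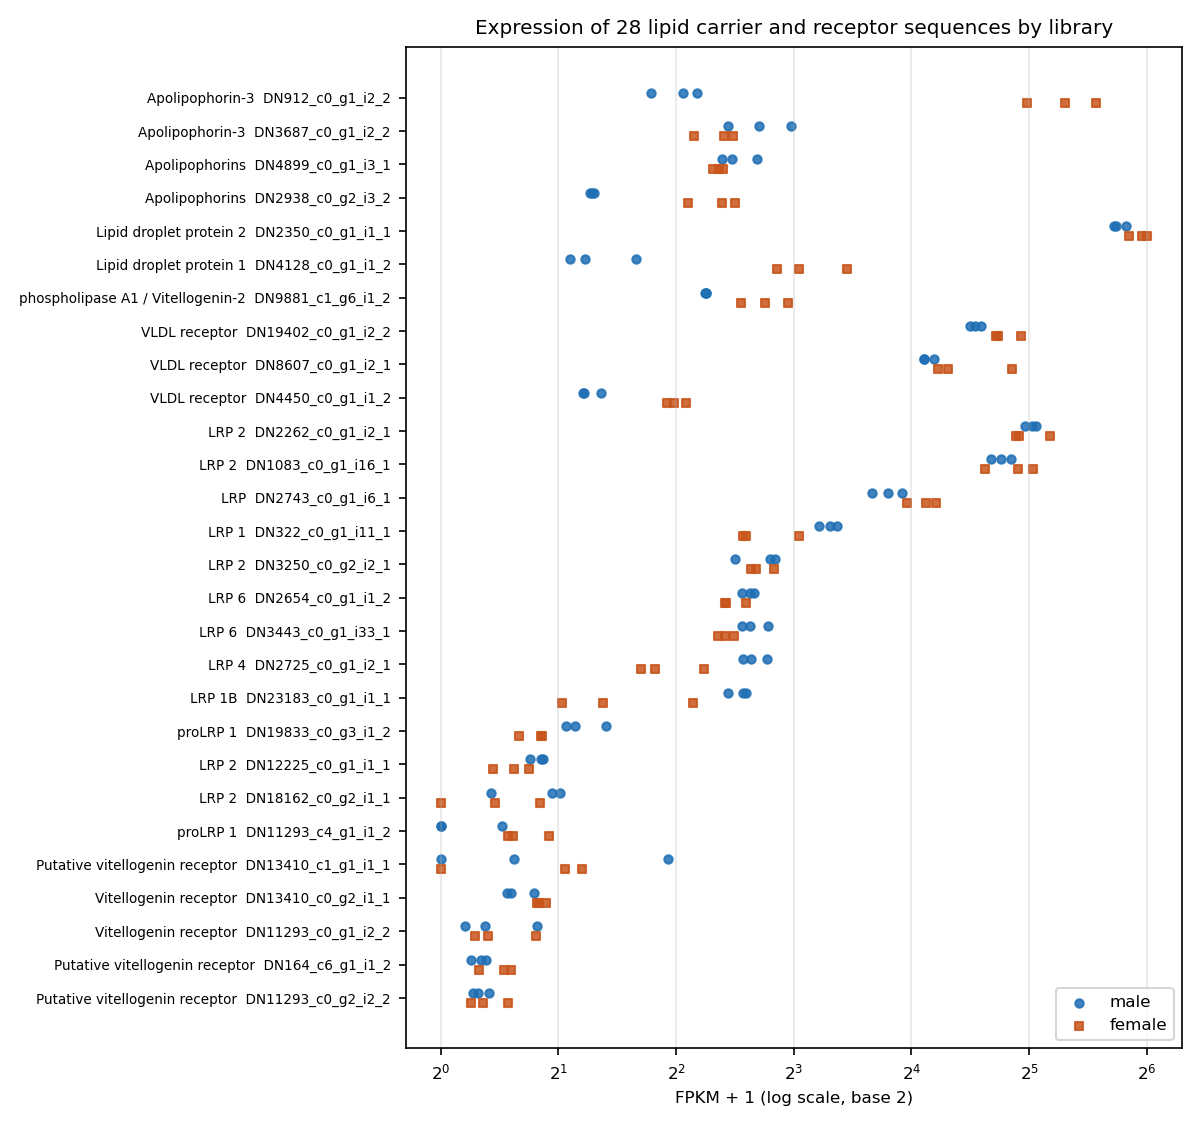
Level of each of the 28 sequences in each library, as FPKM + 1 on a log axis of base 2; circles are the 3 male and squares the 3 female libraries, names are shortened (LRP, low-density lipoprotein receptor-related protein; VLDL, very low-density lipoprotein) and the prefix TRINITY_ is left off the identifiers. The upper apolipophorin-3 sequence lies at 2.45 to 3.53 FPKM in males and 30.6 to 46.4 FPKM in females, while LRP 2 DN2262_c0_g1_i2_1 lies between 28.6 and 35.1 FPKM over both sexes.

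**Figure D2:**
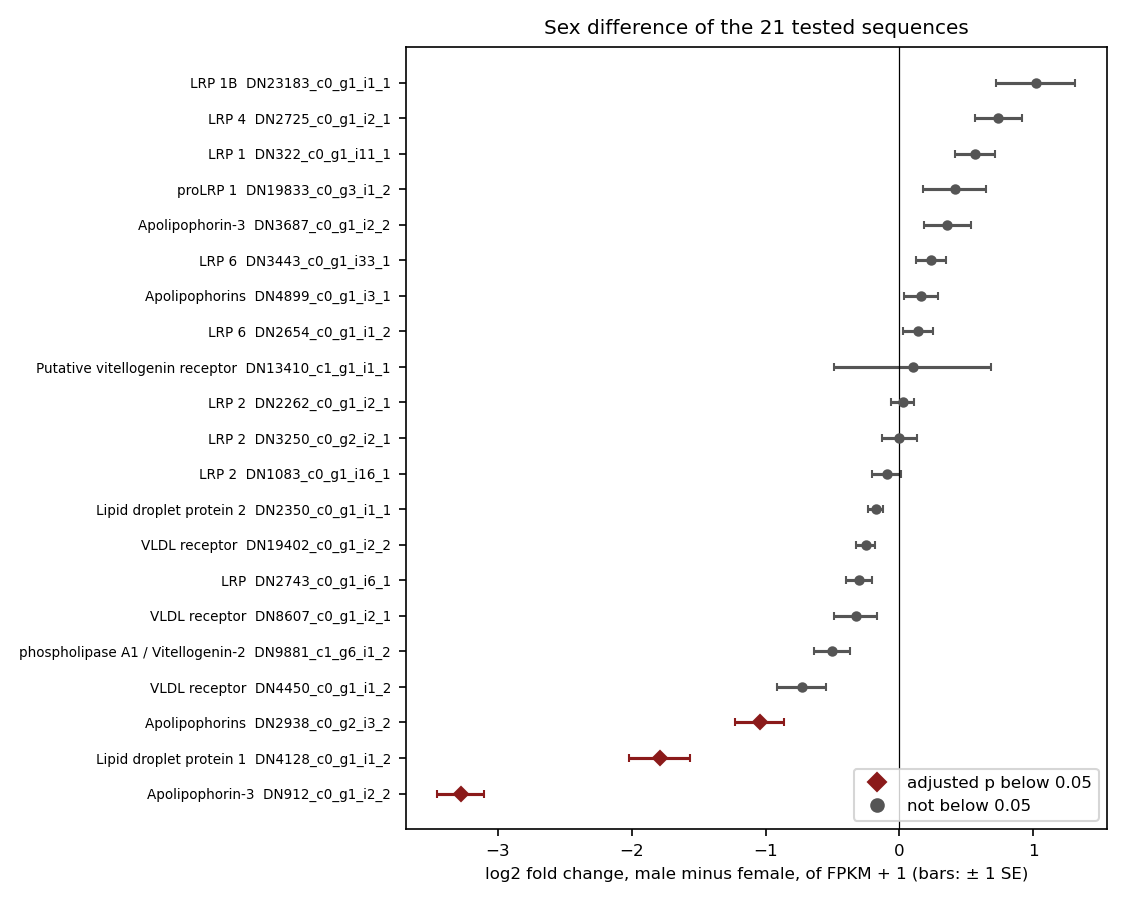
Log2 fold change, male minus female, of FPKM + 1 for the 21 sequences tested, with bars of 1 SE on either side; diamonds mark a limma adjusted p below 0.05. The 3 diamonds lie at -3.28, -1.79 and -1.04, and the other 18 sequences lie between -0.73 and 1.02.

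Apolipophorin-3, the exchangeable protein of the lipophorin particle, was represented by 2 sequences, 1 lower in males and 1 that did not pass the test. TRINITY_DN912_c0_g1_i2_2 had 3.53, 3.16 and 2.45 FPKM in males 1, 2 and 3, against 38.5, 46.4 and 30.6 FPKM in females 1, 2 and 3. All 3 males lay far below all 3 females. Its mean was 3.05 ± 0.55 FPKM in males and 38.5 ± 7.9 FPKM in females (SD, n = 3 each), so that the female mean was 12.6 times the male mean. Its log2 fold change, male minus female, came to -3.28 with an SE of 0.17 (limma adjusted p = 0.0011), with -3.65 in the library set of males 2 and 3 and female 2, and -2.96 in the other set. Ranked by mean level among the 28, this sequence stood in place 16 in males and in place 2 in females. It carries the apolipophorin-III precursor domain in the authors' Pfam annotation.

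The other apolipophorin-3 sequence, TRINITY_DN3687_c0_g1_i2_2, had 6.86, 4.43 and 5.50 FPKM in males and 4.60, 4.31 and 3.45 FPKM in females. Male 2 fell below female 1, so the sexes overlapped, and the sequence did not pass the test (limma adjusted p = 0.29, log2 fold change 0.36 with SE 0.18). Its log2 fold change was 0.22 without male 1, 0.16 in the set of males 2 and 3 and female 2, and 0.65 in the other set. It was named from a different protein of a related bagworm than the first sequence, and it has no Pfam domain in the table. In males its level was above that of the first sequence in each library, with a ratio of the first to the second of 0.51, 0.71 and 0.44. In females the first was above the second by a ratio of 8.36, 10.8 and 8.86.

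The apolipophorin precursor, source of the non-exchangeable backbone of lipophorin, also had 2 sequences. Both carry the lipoprotein amino terminal region, the open beta-sheet domain of vitellinogen, a domain of unknown function (DUF1081) and the von Willebrand factor type D domain. TRINITY_DN2938_c0_g2_i3_2, named Apolipophorins by both databases, had 1.40, 1.47 and 1.44 FPKM in males, against 3.29, 4.67 and 4.23 FPKM in females. Every male was below every female. The female mean was 2.82 times the male mean, and the fitted difference of -1.04 (limma adjusted p = 0.025, SE 0.18, log2 scale) understates this ratio because 1 was added to low values. The value was -1.21 in the set of males 2 and 3 and female 2, and -0.98 in the other set. The call ended, at log2 fold changes between -1.05 and -0.96, without male 1, male 2, male 3, female 2 or female 3 (limma adjusted p = 0.080 to 0.090), and with the library sets as a model term (adjusted p = 0.057).

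TRINITY_DN4899_c0_g1_i3_1, an apolipophorin by its match to a locust protein in Swiss-Prot and uncharacterized in NR, had 4.56, 5.44 and 4.25 FPKM in males and 3.97, 4.14 and 4.26 FPKM in females. The sexes overlapped, and it did not pass the test (limma adjusted p = 0.51, log2 fold change 0.16 with SE 0.13, and 0.076 without male 2). In males it stood above the first apolipophorin sequence by a ratio of 3.25, 3.69 and 2.95, whereas in females the ratio was 1.21, 0.89 and 1.01.

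Of the coat proteins of lipid droplets, perilipins of the insect kind, protein 1 was lower in males and protein 2 was the most abundant of all 28 sequences in both sexes. Lipid storage droplets surface-binding protein 1 (TRINITY_DN4128_c0_g1_i1_2), which in Drosophila regulates lipolysis at the droplet, had 1.33, 2.17 and 1.14 FPKM in males, against 7.25, 9.97 and 6.24 FPKM in females. The sexes did not overlap, and the female mean was 5.05 times the male mean. On the log2 scale the difference was -1.79 with an SE of 0.23 (limma adjusted p = 0.0097), with -2.07 in the set of males 2 and 3 and female 2, and -1.73 in the other set.

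Lipid storage droplets surface-binding protein 2 (TRINITY_DN2350_c0_g1_i1_1), which in Drosophila shields the stored fat, had 52.4, 55.6 and 51.7 FPKM in males and 56.7, 63.0 and 61.2 FPKM in females. All males lay below all females by a small margin, and the sequence did not pass the test (limma adjusted p = 0.13, log2 fold change -0.18 with SE 0.06). With median-of-ratios scaling its adjusted p was 0.041 at a log2 fold change of -0.24, the 1 call among 16 alternative settings of the fit. Under the others the limma adjusted p lay between 0.073 (without female 1) and 0.29 (without male 3). Protein 2 was thus present in males at many times the level of protein 1. Both carry the perilipin domain.

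Among vitellogenin names, no sequence was matched to a vitellogenin of the lipid transfer family. The sequence that Swiss-Prot named Vitellogenin-2, TRINITY_DN9881_c1_g6_i1_2, was matched to the Drosophila yolk protein of that name, which is related to lipases. NR named it phospholipase A1-like, and its Pfam domain is Lipase. It had 3.74, 3.77 and 3.77 FPKM in males and 6.73, 5.74 and 4.87 FPKM in females. Males lay below females in every library, and the sequence missed the threshold (limma adjusted p = 0.081, log2 fold change -0.50 with SE 0.13).

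The 5 sequences named vitellogenin receptor, the protein that takes yolk into the egg, were near the floor of the table in both sexes. Outside 1 sequence, their values lay between 0.15 and 0.86 FPKM in all 6 libraries, and 4 of the 5 did not pass the filter. The fifth, TRINITY_DN13410_c1_g1_i1_1, had 0, 2.81 and 0.54 FPKM in males and 1.08, 1.30 and 0 FPKM in females, and did not pass the test (limma adjusted p = 0.94, log2 fold change 0.10 with SE 0.59). Its value in male 2 stood apart from the other libraries, and it was listed at 0 in male 1 and in female 3. Without male 2 the log2 fold change was -0.44 (adjusted p = 0.70). This sequence and TRINITY_DN11293_c0_g2_i2_2 were named from the same protein.

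Very low-density lipoprotein receptor, the name given to 3 sequences, belongs to the branch of the receptor family that in other insects includes the lipophorin receptor. TRINITY_DN19402_c0_g1_i2_2 had 23.1, 22.2 and 21.5 FPKM in males and 25.6, 25.3 and 29.4 FPKM in females (limma adjusted p = 0.095, log2 fold change -0.25 with SE 0.07). TRINITY_DN8607_c0_g1_i2_1 had 17.3, 16.3 and 16.3 FPKM in males and 27.9, 18.9 and 17.7 FPKM in females (limma adjusted p = 0.29, log2 fold change -0.33 with SE 0.16). Female 1 was the high library here, and without it the log2 fold change was -0.13. TRINITY_DN4450_c0_g1_i1_2 had 1.57, 1.33 and 1.32 FPKM in males and 3.25, 2.78 and 2.94 FPKM in females (limma adjusted p = 0.067, log2 fold change -0.73 with SE 0.18). All 3 sequences had every male below every female, and none passed the test. Of the 3, TRINITY_DN8607_c0_g1_i2_1 alone carries the class A receptor domain in the table, and its eggNOG description is Fz domain. TRINITY_DN19402_c0_g1_i2_2 and TRINITY_DN4450_c0_g1_i1_2 were named by NR alone and have no Swiss-Prot name, Pfam domain or eggNOG description. Whether any of the 3 is a lipophorin receptor was not tested.

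Among 21 sequences with a receptor name, 9 carry the class A domain that binds lipoproteins, 5 carry the class B repeat of the same receptors and 10 have no Pfam domain. Low-density lipoprotein receptor-related protein 2, known in mammals as megalin, a broad endocytic receptor, was the name of 5 sequences, 3 of them tested. TRINITY_DN2262_c0_g1_i2_1, which has both receptor domains, had 31.6, 32.3 and 30.3 FPKM in males and 35.1, 28.6 and 29.2 FPKM in females (limma adjusted p = 0.90, log2 fold change 0.02 with SE 0.09). The males fell within the range of the females, and the sign turned to -0.04 with median-of-ratios scaling. TRINITY_DN1083_c0_g1_i16_1 averaged 26.2 ± 1.6 FPKM in males and 28.2 ± 4.1 FPKM in females (SD, n = 3 each), and TRINITY_DN3250_c0_g2_i2_1 averaged 5.60 ± 0.81 FPKM in males and 5.59 ± 0.48 FPKM in females. Their log2 fold changes were -0.10 (SE 0.11) and -0.00 (SE 0.13). That of TRINITY_DN1083_c0_g1_i16_1 was -0.21 without female 1, -0.053 without male 3 and -0.0063 without female 3. The receptor name of TRINITY_DN1083_c0_g1_i16_1 is doubtful, since Swiss-Prot named it Protein phosphatase 1 regulatory subunit 14B and its Pfam domain is that of a phosphatase inhibitor. TRINITY_DN3250_c0_g2_i2_1, named from the same protein, has no Swiss-Prot name and no Pfam domain. Swiss-Prot gave the name SCO-spondin to TRINITY_DN12225_c0_g1_i1_1 of protein 2, TRINITY_DN164_c6_g1_i1_2 of the vitellogenin receptors and TRINITY_DN11293_c4_g1_i1_2, all untested. The names of these sequences thus differ between NR and Swiss-Prot and remain uncertain. Of them, TRINITY_DN12225_c0_g1_i1_1 carries the class A domain, and TRINITY_DN11293_c4_g1_i1_2 has the KEGG gene name LRP2.

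The 3 receptor sequences with the largest log2 fold changes above 0 had every male above every female, and none passed the test. Low-density lipoprotein receptor-related protein 4 (TRINITY_DN2725_c0_g1_i2_1), known in vertebrates from the nerve-muscle junction, had 4.94, 5.84 and 5.22 FPKM in males and 2.26, 2.54 and 3.71 FPKM in females (limma adjusted p = 0.061, log2 fold change 0.74 with SE 0.18). Low-density lipoprotein receptor-related protein 1 (TRINITY_DN322_c0_g1_i11_1), an endocytic receptor, had 9.34, 8.92 and 8.28 FPKM in males and 7.26, 5.04 and 4.92 FPKM in females (limma adjusted p = 0.079, log2 fold change 0.56 with SE 0.15). TRINITY_DN23183_c0_g1_i1_1, named protein 1B by Swiss-Prot, had 4.92, 4.43 and 5.05 FPKM in males and 1.60, 1.05 and 3.42 FPKM in females (limma adjusted p = 0.10, log2 fold change 1.02 with SE 0.30). Female 3 was the library nearest to the males for proteins 4 and 1B, and both were called without it (adjusted p = 0.044 and 0.033). Protein 1 was called without female 1, its highest female (adjusted p = 0.022). Without any other single library, the limma adjusted p was 0.12 to 0.19 for protein 4, 0.18 to 0.24 for protein 1B and 0.16 to 0.20 for protein 1. With the library sets as a model term it was 0.13, 0.11 and 0.11 for proteins 4, 1B and 1.

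Low-density lipoprotein receptor-related protein 6, a Wnt co-receptor and no lipid carrier receptor, had 2 sequences of nearly equal level. TRINITY_DN2654_c0_g1_i1_2 averaged 5.13 ± 0.22 FPKM in males and 4.57 ± 0.39 FPKM in females, and TRINITY_DN3443_c0_g1_i33_1 averaged 5.32 ± 0.52 FPKM in males and 4.36 ± 0.25 FPKM in females (SD, n = 3 each). Neither passed the test, with limma adjusted p-values of 0.51 and 0.28. A further sequence named only as a related protein, TRINITY_DN2743_c0_g1_i6_1, averaged 12.9 ± 1.2 FPKM in males and 16.2 ± 1.4 FPKM in females and missed the threshold as well (log2 fold change -0.30, limma adjusted p = 0.12). The 7 sequences under the filter were 4 vitellogenin receptors, 2 sequences of protein 2 and a Prolow-density lipoprotein receptor-related protein 1 matched to a coral protein (TRINITY_DN11293_c4_g1_i1_2). They had at most 1.02 FPKM in any library, and none of them was called when the filter was dropped (lowest limma adjusted p = 0.27).

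Sequences sharing a name were then compared directly, by the difference of their log2 fold changes, in 7 pairs with the most abundant sequence of the name as the first. With 3 against 3 libraries the exact two-sided permutation test cannot give a p below 0.1. The 2 apolipophorin-3 sequences differed by -3.63 (SE 0.20), the 2 apolipophorins by 1.20 (SE 0.13), and TRINITY_DN19402_c0_g1_i2_2 and TRINITY_DN4450_c0_g1_i1_2, named very low-density lipoprotein receptor, by 0.48 (SE 0.09). The last difference was 0.78 with 0.1 in place of 1 added to the FPKM. For these 3 pairs the ratios of males and females did not overlap, the exact permutation p was 0.1, the smallest possible, and the value adjusted over the 7 pairs was 0.23. The other 4 pairs had overlapping ratios and differences between -0.10 and 0.12, with SE between 0.11 and 0.24.

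**Figure D3:**
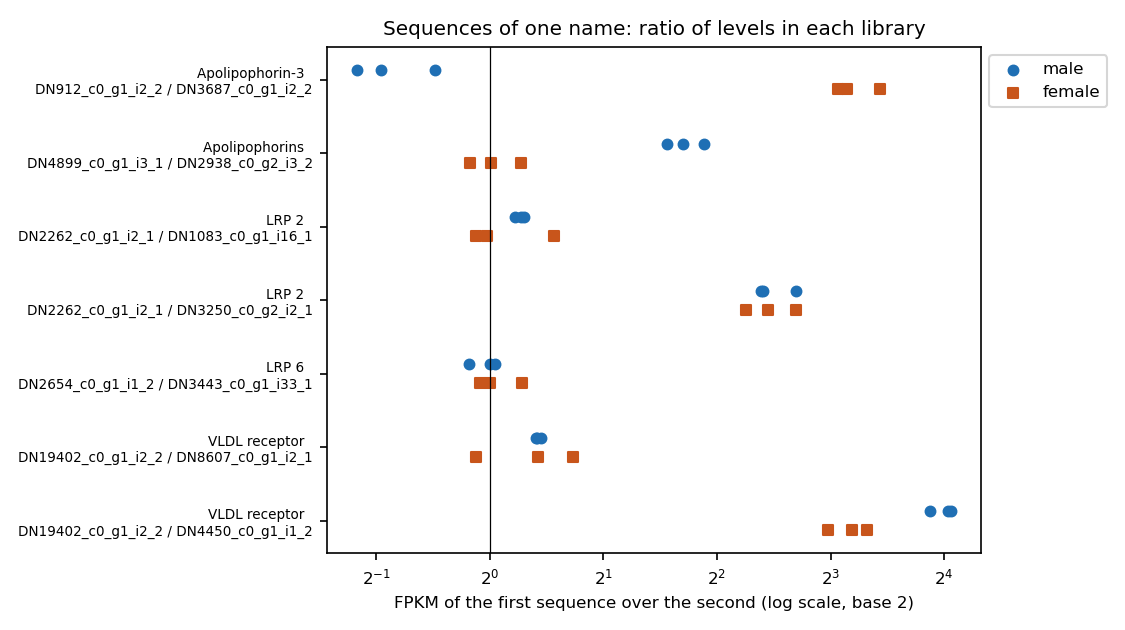
Ratio of the FPKM of 2 sequences of the same name in each library, on a log axis of base 2; circles are male and squares female libraries, and the line marks equal levels. In the top row the ratio lies between 0.44 and 0.71 in males and between 8.36 and 10.8 in females, and in the row of protein 6 (LRP 6) both sexes lie near 1.

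In 5 cases a pair of sequences was named from the same protein of the related bagworm. The protein 6 pair, whose names end in 2 and in 1, had a ratio of levels between 0.88 and 1.22 in all libraries. The very low-density lipoprotein receptor pair had a ratio between 7.89 and 16.7, and the protein 2 pair of TRINITY_DN1083_c0_g1_i16_1 and TRINITY_DN3250_c0_g2_i2_1 a ratio between 4.38 and 5.56. Such pairs may be copies or pieces that divided reads between them, which makes the level of either one uncertain.

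Other sequences of lipid handling were counted in 8 lists matched by name, with the 28 sequences left out. Of 105 tested, 12 were called, 5 higher and 7 lower in males, which is 11.4% beside the 7.11% of all sequences tested, and their median log2 fold change was -0.03. At an unadjusted p below 0.05 were 33 of the 105, beside 8214 of the 35198 sequences tested. The same background stands beside the unadjusted counts of single lists below. Among lipid carriers inside cells 3 of 21 were higher and 1 lower in males. NPC intracellular cholesterol transporter 2 (TRINITY_DN8797_c0_g1_i2_2), a sterol-binding protein, averaged 172 ± 6 FPKM in males and 105 ± 7 FPKM in females (SD, n = 3 each), and was called with a limma adjusted p of 0.0031 at a log2 fold change of 0.71 (SE 0.06). NPC intracellular cholesterol transporter 1 homolog 1b (TRINITY_DN17371_c2_g1_i1_1) was higher in males (1.41, limma adjusted p = 0.041), and NPC intracellular cholesterol transporter 1 (TRINITY_DN998_c0_g1_i18_2) was lower (-0.36, limma adjusted p = 0.014). Fatty acid-binding protein, muscle (TRINITY_DN3945_c0_g1_i1_2), named after its values were seen, was the other call higher in males (0.54, limma adjusted p = 0.036). The most abundant over both sexes, Acyl-CoA-binding protein homolog (TRINITY_DN17482_c0_g1_i2_2), averaged 156 ± 13 FPKM in males and 147 ± 29 FPKM in females and was not called.

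Fatty acid uptake and scavenger receptors had 1 of 13 higher and 2 lower in males. Long-chain fatty acid transport protein 1 (TRINITY_DN4230_c1_g1_i15_1) averaged 24.5 ± 1.2 FPKM in males and 14.2 ± 1.6 FPKM in females (log2 fold change 0.75, limma adjusted p = 0.0070), and Scavenger receptor class B member 1, of a family of lipid and carotenoid receptors, was lower in males in 2 sequences (-0.82 and -0.68, limma adjusted p = 0.025 and 0.021). The most abundant of this list, long-chain fatty acid transport protein 4 (TRINITY_DN2527_c0_g1_i1_1), averaged 33.3 ± 1.0 FPKM in males and 30.6 ± 2.0 FPKM in females and was not called. Of 9 lipases, Lipase member I (TRINITY_DN1908_c0_g1_i10_2) was lower in males, at 36.6 ± 2.7 FPKM in males and 70.1 ± 9.7 FPKM in females (-0.91, limma adjusted p = 0.0079). Triacylglycerol and phospholipid synthesis had 3 of 24 lower in males, Putative phosphatidate phosphatase (-0.55), Phosphatidate phosphatase LPIN3 (-0.51) and, named after its values were seen, Glycerol-3-phosphate acyltransferase 4 (-0.39), and none higher. That list also matched, by the letters of lipin, Perilipin-4 (TRINITY_DN131_c0_g1_i32_2), a droplet coat name outside the patterns above, which averaged 63.0 ± 2.6 FPKM in males and 66.4 ± 7.2 FPKM in females and was not called.

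None of 30 sequences of fatty acid oxidation, 3 of the lipid droplet list or 2 of adipokinetic hormone signalling was called by limma, while 13, 0 and 1 of them had an unadjusted p below 0.05. Both adipokinetic sequences were named Adipokinetic prohormone type 1, the precursor of the hormone that mobilizes fat. The more abundant, TRINITY_DN15798_c0_g1_i1_2, averaged 14.9 ± 3.2 FPKM in males and 6.68 ± 3.51 FPKM in females (SD, n = 3 each; log2 fold change 1.16, limma adjusted p = 0.15). Of 4 sequences in the yolk and egg shell list, 1 named Chorion peroxidase (TRINITY_DN1742_c0_g1_i11_2) was higher in males (0.83, limma adjusted p = 0.0070). Its name comes from an enzyme of the egg shell, and the list held no yolk protein. The most abundant sequence of fatty acid oxidation, Enoyl-CoA hydratase, mitochondrial (TRINITY_DN18818_c0_g1_i1_1), averaged 168 ± 8 FPKM in males and 195 ± 5 FPKM in females (limma adjusted p = 0.076). Of the 12 calls, those of NPC intracellular cholesterol transporter 2, Long-chain fatty acid transport protein 1, Lipase member I and Chorion peroxidase held without each single library. The other 8 all ended without male 1 and without male 3, where 4 calls were left, and some also without other libraries, with limma adjusted p-values reaching 0.060 to 0.135.

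**Figure D4:**
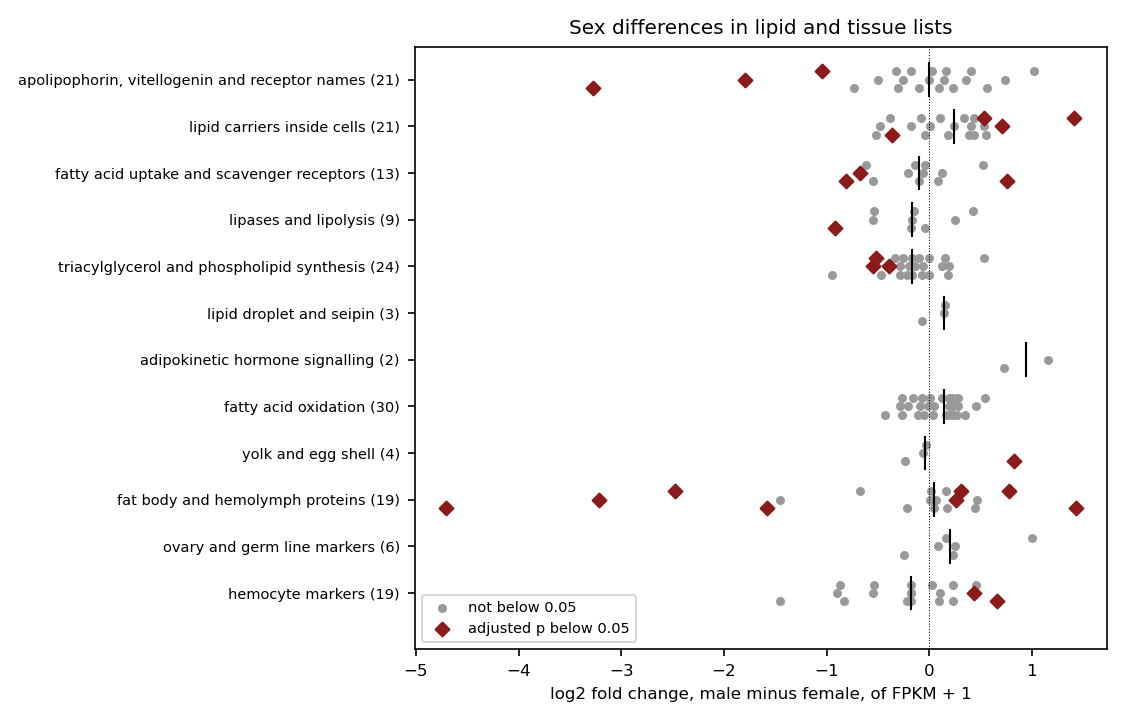
Log2 fold change, male minus female, of FPKM + 1 for every tested sequence of the 28 (top row), of the 8 lipid lists and of 3 lists of tissue markers, with the number tested in brackets; diamonds mark a limma adjusted p below 0.05 and upright bars the median of each list. The fat body row reaches -4.71 and 1.43, and the top row -3.28 and 1.02.

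Markers of the fat body, a tissue that makes lipophorin proteins and holds coated lipid droplets, were read beside the apolipophorin and droplet protein sequences. Of 22 fat body and hemolymph sequences 19 were tested, with 4 higher and 4 lower in males. Over all sequences tested, 4.4% were called higher and 2.7% lower in males, a background that also stands beside the hemocyte and ovary counts. The summed level of the 22 was 220 to 240 FPKM in males and 264 to 280 FPKM in females, and none was listed at 0 in all libraries. A few large differences weigh on this sum, while the median log2 fold change of the 19 was 0.05. Among them are Arylphorin subunit alpha, given next, and Acidic juvenile hormone-suppressible protein 1, at 2.98 FPKM in males and 19.9 FPKM in females. Arylphorin subunit alpha (TRINITY_DN18247_c0_g1_i1_1), a storage protein, averaged 0.072 FPKM in males and 27.0 FPKM in females (log2 fold change -4.71). At that male mean it passed the filter through the females alone. Juvenile hormone-binding protein (TRINITY_DN4747_c0_g1_i1_2) had a log2 fold change of -3.22, and both sequences were called without each single library. In the other direction, 27 kDa hemolymph protein (TRINITY_DN7096_c0_g2_i5_1) had 1.43 and Transferrin (TRINITY_DN901_c0_g1_i6_1) 0.78, calls that ended without any 1 of the males, and for Transferrin without any 1 library (limma adjusted p up to 0.080 and 0.130). The part of the amount of fat body in the head in the apolipophorin and droplet protein differences was not tested. Hemocyte markers summed to 186 to 195 FPKM in males and 167 to 187 FPKM in females, while their median log2 fold change was -0.17, of the opposite sign. Of 19 tested, 2 were called higher and 0 lower in males, Peroxidasin homolog (TRINITY_DN486_c0_g1_i6_1, 0.66) and peroxidasin (TRINITY_DN6372_c0_g1_i3_1, 0.43), and 10 had an unadjusted p below 0.05. Peroxidasin homolog held without each single library, and the call of the other ended without each male (limma adjusted p up to 0.056). Ovary and germ line markers summed to 63.0 to 69.0 FPKM in males and 62.4 to 65.6 FPKM in females, and none of 6 was called by limma, with 3 at an unadjusted p below 0.05.

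All 3 called sequences have names ending in 2. Among all tested sequences with that ending 3.56% were called lower in males, against 1.96% of those ending in 1. Called higher in males were 3.03% of those ending in 2 and 5.59% of those ending in 1. The median log2 fold change of all tested was -0.07 with ending 2 and 0.15 with ending 1. The receptor sequences of proteins 4, 1 and 1B, with every male above every female, have names ending in 1. With the library sets as a model term, the calls of apolipophorin-3 and lipid storage droplets surface-binding protein 1 held (limma adjusted p = 0.0083 and 0.022). That of the apolipophorin precursor ended (0.057). The part of the name ending itself in the 3 calls was not tested.

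The sequences whose pattern over the 6 libraries was most like that of the sex-different apolipophorin-3 were sought among 4729 annotated sequences of mean FPKM of at least 10, by the root mean square distance of centred log2(FPKM + 1). They were zonadhesin 4 (TRINITY_DN4369_c1_g1_i2_2), at a distance of 0.29 log2 units, Ommochrome-binding protein (0.30), Gamma-glutamylcyclotransferase (0.46), Acidic juvenile hormone-suppressible protein 1 (0.52) and Fungal protease inhibitor-1 (0.53). All of them were lower in males, which the measure of likeness itself brings about.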

How the data were processed

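Head RNA of 3 male and 3 female samples was sequenced as stranded mRNA libraries, per the labels' protocols. Trimmomatic, HTSeq and R 3.2.0 appear, with no role stated, in the submitters' processing notes. Not given in the sources used here: aligner, build and filters. The authors deposited FPKM per assembled sequence and library with protein annotation. Among ratios of low values (below 0.5 FPKM), the fullest window of 0.02 log2 units held at most 9.98%. Whether this pile-up marks whole-read steps was not tested. Read numbers were not recovered, so depth is unknown and no count test was used. The table gives no nucleotide or protein sequence, and no genome was used here.

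A sequence was named by NR, or by Swiss-Prot where NR was uninformative. log2(FPKM + 1) was fitted with limma 3.58.1 (R 4.3.3, mean-variance trend, no block) on sequences with FPKM of at least 1 in at least 3 libraries. The sequences and lists described here were chosen with earlier results of these data known. All 28 were eligible to be named; in the other lists, up to 2 calls in each direction and the most abundant sequence were, the lists of tissue markers being shortened. The split of libraries by name ending comes from the values. The fit was tested on simulated data. Alternatives covered pseudocounts, filters, scalings, a replicate block, the library split, shrinkage, array weights and each library left out.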

Additional observations from a re-analysis of the deposited data

How the results depend on the processing

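The calls of Apolipophorin-3 (TRINITY_DN912_c0_g1_i2_2) and lipid storage droplets surface-binding protein 1 held under all 16 alternatives, with limma adjusted p up to 0.014 and 0.045. The Apolipophorins call held under 9 of 16. The number called among the 28 was 2 to 4 without a single library and became 7 (2 higher and 5 lower in males) with FPKM of at least 1 required in all 6 libraries, where 19 of them and 18694 sequences in all were tested and 15.4% of all were called. The 4 added were the third very low-density lipoprotein receptor sequence, the Vitellogenin-2 match and proteins 4 and 1. Over all sequences the 2501 calls became 1136 with the library split as a term, 631 with the replicate block, and 822 to 1776 without a single library (822, 837 and 910 without male 1, 2 and 3, 1107 and 1326 without female 2 and 3). The 12 calls of the lipid lists became 5 with the library split, 4 with the replicate block and 4 to 11 without a single library. The replicate block left 2 of the 28 called, the Apolipophorins call ending at an adjusted p of 0.087. Same-numbered libraries deviated together with correlations of 0.11, 0.12 and -0.05, so the numbers were not taken to pair the samples, and the first male correlated best with the first female, the second with the second, and the third with the second.

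Signs turned for the following log2 fold changes. TRINITY_DN13410_c1_g1_i1_1 had -0.23 with the library split, and -0.44 to 0.52 without a single library, turning without male 2 or female 3. TRINITY_DN2262_c0_g1_i2_1 had -0.038 with median-of-ratios scaling, and -0.029 to 0.12 without a single library, turning without female 2 or female 3. TRINITY_DN3250_c0_g2_i2_1 had 0.039 with the library split, and -0.067 to 0.10 without a single library, turning without male 3 or female 3. The difference between TRINITY_DN2262_c0_g1_i2_1 and TRINITY_DN1083_c0_g1_i16_1 ranged from -0.0067 to 0.33 without a single library, that with TRINITY_DN3250_c0_g2_i2_1 from -0.069 to 0.13, and that between TRINITY_DN19402_c0_g1_i2_2 and TRINITY_DN8607_c0_g1_i2_1 from -0.15 to 0.26. The cause of these changes was not tested. Values near or below 1 FPKM, such as those of the vitellogenin receptors, rest on an unknown number of reads.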

Other observations

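The Pfam column gives a view of these families that does not use names. The lipoprotein amino terminal region was found in 4 sequences, the 2 apolipophorins and 2 others. One of the others, TRINITY_DN1512_c0_g1_i11_1, was named Microsomal triacylglycerol transfer protein, the factor that loads lipid onto lipoproteins during their assembly, under a spelling that the name patterns above do not match. It had 18.9, 19.4 and 18.2 FPKM in males and 21.4, 17.3 and 17.8 FPKM in females, and its log2 fold change was 0.00 (limma adjusted p = 0.98, SE 0.09). The males fell within the range of the females. The remaining one, TRINITY_DN14000_c0_g3_i1_1, had no informative name and averaged 1.69 FPKM in males and 1.66 FPKM in females. The perilipin domain and the apolipophorin-III domain were found in no further sequence of the table.

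The class A domain of low-density lipoprotein receptors was found in 25 sequences, 9 of them described above, and 13 of the others were tested. Of these 13, 2 were called higher and 2 lower in males, beside 4.4% and 2.7% of all sequences tested. Sortilin-related receptor (TRINITY_DN815_c0_g1_i13_2), a sorting receptor that carries both receptor domains, averaged 37.1 ± 1.6 FPKM in males and 64.6 ± 4.5 FPKM in females (SD, n = 3 each) and was called at a log2 fold change of -0.78 (limma adjusted p = 0.0031, SE 0.06), with and without each single library. Its level stood above that of all receptor sequences named above in both sexes. A second class A sequence named Sortilin-related receptor (TRINITY_DN1000_c0_g1_i1_1) had 1.14, 1.59 and 1.33 FPKM in males and 0.18, 0.42 and 0.22 FPKM in females. Every male lay above every female, but this sequence passed the filter through the males alone. It did not pass the test (limma adjusted p = 0.086, log2 fold change 0.89). Basement membrane-specific heparan sulfate proteoglycan core protein (TRINITY_DN1000_c0_g2_i22_1), of the extracellular matrix, averaged 7.11 ± 0.87 FPKM in males and 2.75 ± 0.28 FPKM in females (1.11, SE 0.13) and was called. The remaining calls were Fibropellin-1 (TRINITY_DN17106_c0_g1_i1_1, 0.31) and Transmembrane protease serine 2 (TRINITY_DN5187_c0_g1_i1_1, -0.32). The Fibropellin-1 call held only without female 1, and that of the protease ended without any 1 library (limma adjusted p up to 0.146 and 0.141). These values were looked up after the table had been read.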
